A study of Mus musculus with 2 samples.

Results

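Matrilins, thrombospondins and tenascin C are secreted glycoproteins that lie between the collagen fibrils, the proteoglycans and the cell surface of cartilage. The 10 genes described here encode matrilins 1 to 4 (Matn1, Matn2, Matn3 and Matn4), thrombospondins 1 to 4 (Thbs1, Thbs2, Thbs3 and Thbs4), cartilage oligomeric matrix protein (Comp, also known as thrombospondin 5) and tenascin C (Tnc). They were chosen by name from these gene families, and their probes were found through the RefSeq transcript that the array files give for each probe. All 10 were represented among 20660 genes that could be named in this way, 7 of them by 1 probe and 3 by 2 probes, and the brightest probe stands for the gene. RNA came from primary chondrocytes of 6-day-old C57BL/6J mice, which were grown for 48 h in silicon chambers coated with fibronectin. One array held RNA from cells that had not been loaded. The other held RNA from cells that had been stretched cyclically by 10% at a frequency of 0.5 Hz over 30 min and were collected 24 h later. Each time point had 1 array, so that no test could be run and no p-value is given. An unloaded culture kept for the same 24 h was not analysed here, and loading cannot be told apart from the added time in culture.

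Matrilins are adaptor proteins that bind collagen fibrils and aggrecan and link them into one network. Matrilin-1 and matrilin-3 are typical of cartilage, whereas matrilin-2 and matrilin-4 are made in many connective tissues. Thrombospondins bind calcium, collagens and cell surface receptors. Thrombospondins 1 and 2 form trimers and inhibit the growth of blood vessels, and thrombospondin 1 also activates latent transforming growth factor beta (TGF-β). Thrombospondins 3 and 4 and Comp form pentamers, and Comp helps collagen molecules to assemble into fibrils. Inherited mutations of Comp or matrilin-3 cause multiple epiphyseal dysplasia. Tenascin C is a large adhesion-modulating protein of developing and injured connective tissue, and it is known as a gene that responds to mechanical strain in fibroblasts.

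RefSeq promoter windows of assembly GRCm38.p6 were held for 7 of the 10 genes, in 9 windows. The 250 bases before the start site are printed below, 5′ to 3′ on the strand of the gene, for Matn1 and Tnc, whose log2 ratios lay farthest from 0 on either side, and for Thbs2, which held an NF-κB motif on both strands. NF-κB is the inflammatory transcription factor with which the study was concerned. Capitals mark every match to 7 motifs searched on both strands, which were TATAA (TATA box), GGGCGG (SP1), TGANTCA (AP-1), ACAAAG and ACAATG (SOX factors), the CArG box and the NF-κB motif.
Matn1, chr4:130944135-130944384, + strand: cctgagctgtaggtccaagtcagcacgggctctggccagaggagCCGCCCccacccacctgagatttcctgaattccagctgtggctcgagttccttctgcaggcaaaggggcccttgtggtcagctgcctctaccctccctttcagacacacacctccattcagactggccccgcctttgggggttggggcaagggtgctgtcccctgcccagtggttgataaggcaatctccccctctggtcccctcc
Tnc, chr4:64046937-64047186, - strand: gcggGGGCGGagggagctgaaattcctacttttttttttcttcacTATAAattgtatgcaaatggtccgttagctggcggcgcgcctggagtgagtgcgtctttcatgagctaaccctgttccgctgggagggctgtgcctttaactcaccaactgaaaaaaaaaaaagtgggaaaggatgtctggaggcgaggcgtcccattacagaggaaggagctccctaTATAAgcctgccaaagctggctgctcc
Thbs2, chr17:14694263-14694512, - strand: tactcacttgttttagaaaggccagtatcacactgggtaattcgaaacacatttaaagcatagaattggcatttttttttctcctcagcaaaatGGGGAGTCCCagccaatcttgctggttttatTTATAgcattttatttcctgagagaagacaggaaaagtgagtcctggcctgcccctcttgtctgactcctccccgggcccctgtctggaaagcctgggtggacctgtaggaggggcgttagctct
The window of Matn1 held 1 match, to GGGCGG on the reverse strand, and none to TATAA. The window of Tnc held TATAA from 27 to 23 and from 205 to 201 bases before the start site, and GGGCGG from 246 to 241 bases before it. In the window of Thbs2, the NF-κB motif matched on both strands over the same bases, from 156 to 147 before the start site, and TATAA matched on the reverse strand from 125 to 121. The NF-κB motif was present in 3 of the 9 windows, in those of Matn3, Matn4 and Thbs2, and in 7.25% of 32851 mouse windows of the same length. The windows of Tnc overlap and share bases, so the next 2 motifs are counted by gene as well as by window. GGGCGG was present for 6 of the 7 genes, in 7 of the 9 windows, and in 32.7% of all mouse windows. TATAA was present for 2 of the 7 genes, Tnc and Thbs2, in 3 of the 9 windows, and in 22.8% of all mouse windows. ACAAAG was found in the window of Thbs3 and in 16.5% of all windows. TGANTCA (6.75% of all windows), ACAATG (10.7%) and the CArG box (1.47%) were in none of the 9. These matches are letters in a sequence window, and binding of a factor was not measured here.

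Intensities are the background-subtracted values of the scanner software, and each array was scaled by its own 75th percentile, which was 466 on both. A log2 ratio is the scaled log2 value at 24 h minus that before loading. The within-array error of a ratio combines the software's own error of both spots, and its median over detected genes was 0.20. A gene is called detected where both arrays gave its brightest probe a signal well above background, which held for 14231 genes. All 13 probes of the 10 genes met this criterion, and none was saturated. Intensities of different probes are not compared, because probes differ in how strongly they bind.

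**Figure D1:**
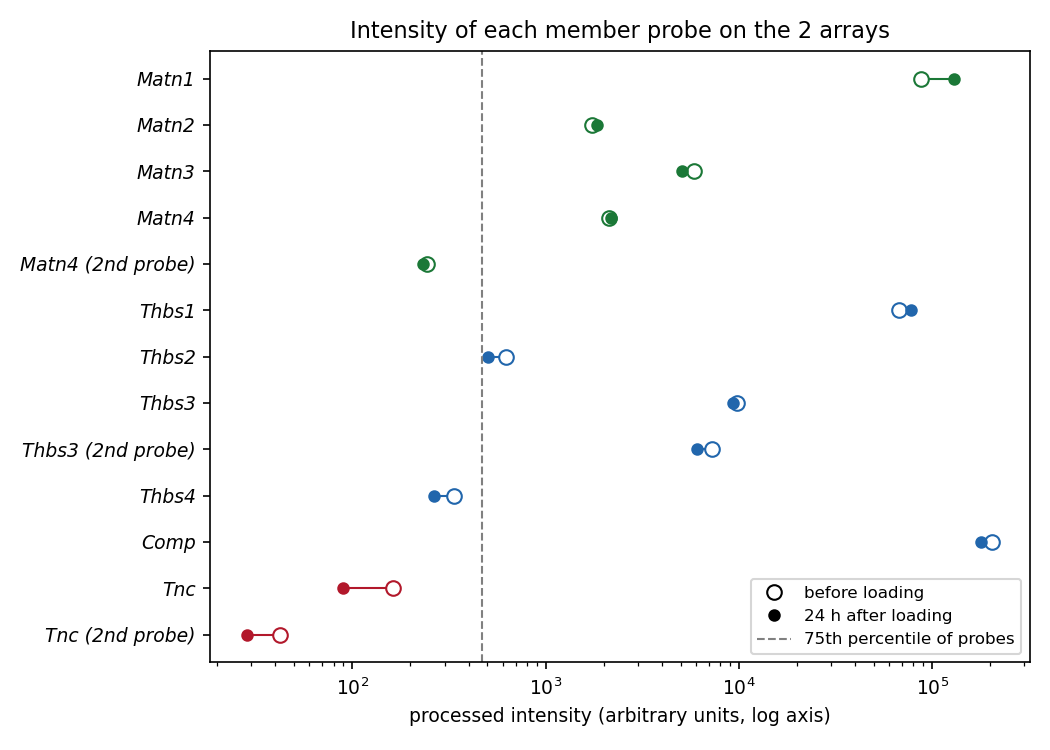
Intensity of 13 probes of the 10 genes before loading and 24 h after it, on a log10 axis, with 1 array per time point. A dimmer probe is also drawn for Matn4, Thbs3 and Tnc. Among the brightest probes, the paired points of 8 genes lie close together. Matn1 is higher at 24 h (87822 before and 129093 at 24 h). The brightest Tnc probe shows the widest gap (163 before and 89.2 at 24 h). Levels of different genes are not comparable.

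Of the 10 genes, 0 passed 2-fold in either direction. Among all detected genes 2.49% passed 2-fold, with 0.668% of all going up and 1.83% going down, so that a count of 0 among 10 is close to the background. These shares are 95 and 260 genes, which became 130 and 205 with scaling to the median of each array. A total of 4 genes had a log2 ratio above 0 (Matn1, Thbs1, Matn2 and Matn4) and 6 had one below 0 (Tnc, Thbs4, Thbs2, Matn3, Comp and Thbs3), with 47.6% and 52.4% of all detected genes on these sides. The sign of Thbs3, Matn4 or Comp turned in some other settings, which are given with these genes. Matn1 was higher by more than 2 within-array errors, as were 7.64% of detected genes, and Tnc was lower by more than 2, as were 9.4%. Thus 2 of the 10 genes passed 2 errors in either direction, with 17% of detected genes doing so. By more than 1 error, 1 gene was higher (20.4% of detected genes) and 4 were lower (22.9%), these being Matn3, Thbs2, Thbs4 and Tnc. The 10 genes had a median log2 ratio of -0.13, against -0.01 over all detected genes, and the median size of the ratio was 0.21 against 0.18.

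**Figure D2:**
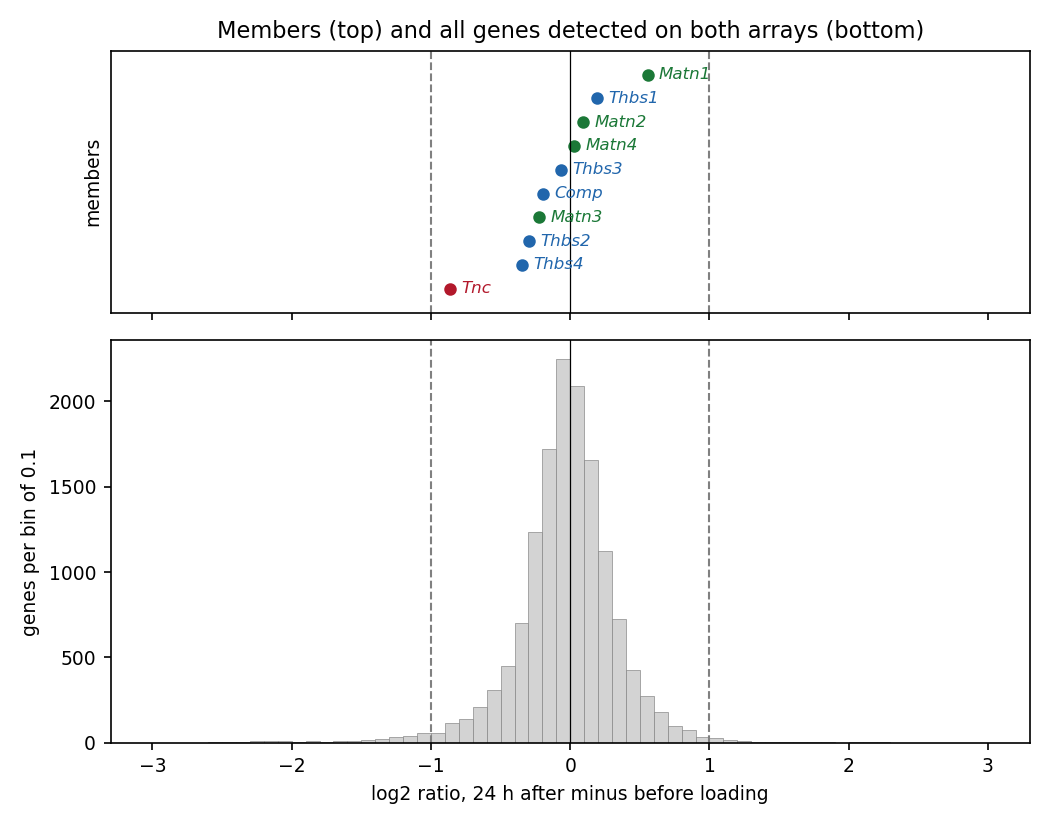
Log2 ratio (24 h after minus before loading) of the 10 genes, above, and of all 14231 detected genes in bins of 0.1, below, with dashed lines at 2-fold. The 10 genes lie between -0.87 (Tnc) and 0.56 (Matn1), all inside the dashed lines, and the sign of Thbs3, Matn4 and Comp turns in some other settings.

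Among the 4 matrilins, Matn1 stood apart from the other three. The intensity of Matn1, the cartilage matrix protein gene, was 87822 before loading and 129093 at 24 h. Its log2 ratio was 0.56 with a within-array error of 0.20, or 1.47-fold higher, and lay above that of 95.7% of detected genes. The level at 24 h was the higher one by 2.73 within-array errors, the widest upward difference of the 10 genes. That error comes from the software and does not cover the spread between arrays or cultures. The 25 spots within 100 µm of the Matn1 spot had a median ratio of -0.16, and relative to these neighbours, a comparison chosen after the data were seen, Matn1 was at 0.72.

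Matn3, which with matrilin-1 forms mixed oligomers in growing cartilage, went the other way. Its intensity was 5891 before loading and 5050 at 24 h, a log2 ratio of -0.22 or 1.17-fold lower, at 1.09 errors from 0. The remaining matrilins of wider tissue distribution were close to level. Matn2 measured 1741 before and 1854 at 24 h, a log2 ratio of 0.09. The brighter probe of Matn4 measured 2137 before and 2178 at 24 h, a log2 ratio of 0.03. Its dimmer probe went from 243 to 231, a ratio of -0.07 with an error of 0.21, and the mean over both probes was -0.02. Neither Matn2 nor Matn4 differed between arrays by as much as 1 within-array error. The median log2 ratio of the 4 matrilins was 0.06.

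Of the 5 thrombospondins, Thbs1 had a log2 ratio above 0 and the other four had one below 0, with a median of -0.20. Thbs1, the trimer that activates latent TGF-β, measured 67594 before loading and 77384 at 24 h, a log2 ratio of 0.20 that stayed within 1 within-array error. Thbs2, the other trimer, measured 621 before and 505 at 24 h, a log2 ratio of -0.30 or 1.23-fold lower, at 1.46 errors. The trimers thus had ratios of opposite sign.

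Among the pentamers, Thbs4, which is known from tendon and muscle attachments, had the lowest ratio. Its intensity was 338 before loading and 265 at 24 h, a log2 ratio of -0.35 with an error of 0.21, or 1.27-fold lower. Of the detected genes, 13.4% had a lower ratio than Thbs4. Thbs3, a thrombospondin of developing skeleton, had intensities of 9837 and 9381 on its brighter probe, a log2 ratio of -0.07. The dimmer probe of Thbs3 went from 7284 to 6071, a ratio of -0.26, and the probes differed by 0.19 with an error of 0.29. The sign of the brighter probe depended on the scaling, since the ratio was 0.03 with scaling to the median of each array, and it was 0.10 relative to detected neighbouring spots.

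Comp, an abundant protein of the cartilage matrix, measured 205261 before loading and 179115 at 24 h. Its log2 ratio was -0.20, or 1.15-fold lower, which is 0.96 of its within-array error. The 29 spots within 100 µm of the Comp spot had a median ratio of -0.20, and 7 of them were more than 2-fold lower. Relative to all of those neighbours the ratio of Comp was 0.01, and relative to the detected ones it was -0.08.

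**Figure D3:**
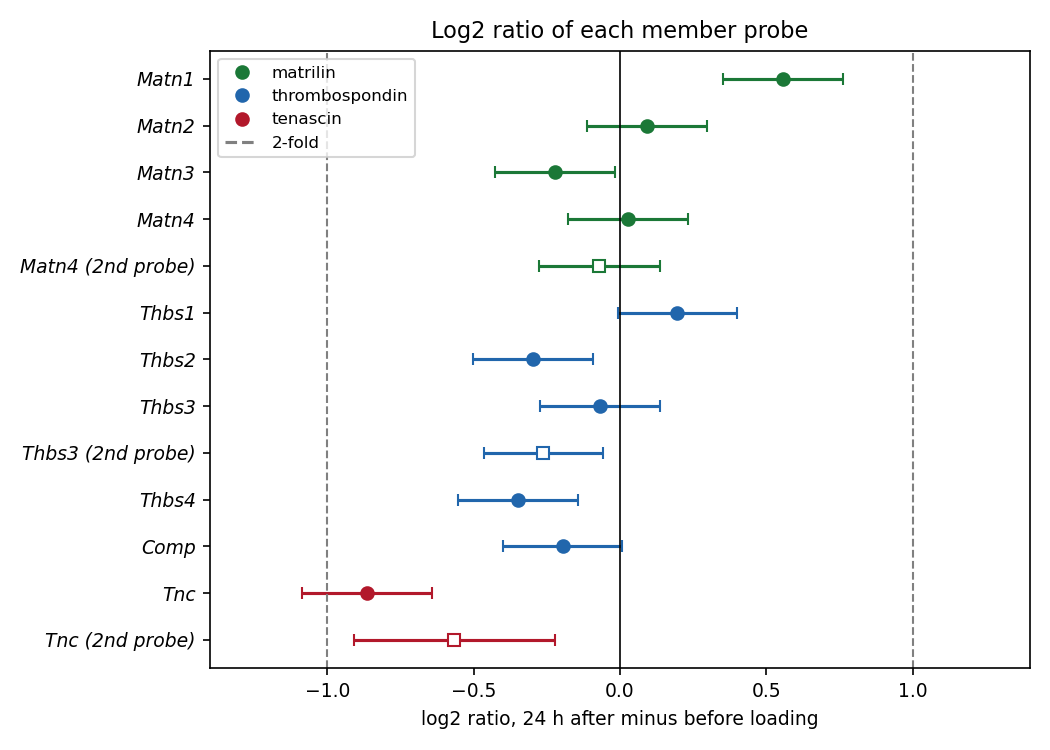
Log2 ratio (24 h after minus before loading) of all 13 probes of the 10 genes, with bars of 1 within-array error and dashed lines at 2-fold. Matn1 and the brighter Tnc probe lie more than 2 errors from 0, while the signs of Thbs3, Matn4 and Comp turn in some other settings.

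Tnc was the gene that differed most between the arrays. Its brighter probe measured 163 before loading and 89.2 at 24 h, a log2 ratio of -0.87 with an error of 0.22, or 1.82-fold lower. Of the detected genes, 2.47% had a lower ratio. The dimmer probe of Tnc went from 42.4 to 28.7, a ratio of -0.57 with an error of 0.34, or 1.48-fold lower. Both probes of this strain-responsive gene were thus lower at 24 h, and they differed from each other by 0.30 with an error of 0.41. The size of the difference depended on the background correction and on the place on the array. With normexp correction, which shrinks ratios of dim probes, the log2 ratio of Tnc was -0.50. The 15 spots around the brighter Tnc probe, 7 of them detected, had a median ratio of 0.30, with 3 of them more than 2-fold higher. Relative to them this probe was at -1.16, past 2-fold. The 28 spots around the dimmer probe had a median ratio of -0.03, so centring would bring that probe no nearer to 2-fold. RNA was taken from whole cultures, in which fewer cells of a type and less RNA per cell cannot be told apart.

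The other tenascins did not share one direction. Tenascin N (Tnn, also called tenascin W, a protein of bone and tendon) measured 170 before loading and 44.5 at 24 h, a log2 ratio of -1.94 with an error of 0.24, and -1.18 with normexp correction. Tenascin X (Tnxb), a collagen-binding protein of loose connective tissue, went from 129 to 191, a ratio of 0.57 that was 0.32 relative to detected neighbouring spots. Tenascin R (Tnr), which is typical of the nervous system, did not stand well above background before or after loading. Tnc and Tnn were thus lower and Tnxb higher at 24 h.

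Genes listed as osteoblast markers had ratios below 0 at 24 h, as did Tnc and Tnn. Of 7 osteoblast markers 5 were detected, all 5 with ratios below 0, against 52.4% of all detected genes. Their summed intensity was 1311 before loading and 674 at 24 h, of which Alpl gave 873 and 471. Bone sialoprotein (Ibsp) had the lowest ratio, -2.06, with intensities of 259 and 61.9. Alkaline phosphatase (Alpl) had a ratio of -0.89, and the osteoblast transcription factor Sp7 one of -0.64, which is also the median of the list and was -0.41 with normexp correction. Phex had -0.34 with an error of 0.32. Runx2, a transcription factor shared with maturing chondrocytes, had -0.05, and its sign turned in 4 other settings. By more than 2 within-array errors 3 of the 5 were lower, as were 9.4% of detected genes. The mature markers Dmp1 and Bglap gave no level here, Dmp1 because it was not well above background and Bglap because no probe was matched. Whether osteoblasts or maturing chondrocytes gave these values was not measured. The part of either cell type in the result for Tnc was not tested.

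Other matricellular proteins, which like tenascins modulate adhesion, were compared as a list of 15 genes, the other tenascins included. The list also holds the adhesive glycoproteins fibronectin and vitronectin, and fibronectin is in the list of matrix binding partners as well. A total of 13 were detected, 6 with ratios above 0 and 7 below, with a median of -0.06 that turned positive when arrays were scaled in 4 other ways. Tnn alone passed 2-fold, against 2.49% of all detected genes. The calcium-binding protein Smoc1 had the highest ratio, 0.90, with intensities of 1040 and 1934. Connective tissue growth factor (Ccn2) went from 94116 to 76443, a ratio of -0.30 that was -0.16 with quantile normalization, and Ccn1, a protein of the same family, from 8464 to 5775, a ratio of -0.55. Smoc2 went from 93629 to 135897, a ratio of 0.54. Ccn1, Ccn2 and Smoc2 were named here after their values were seen.

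All 12 genes for matrix molecules that bind matrilins, thrombospondins or tenascin C were detected. None of the 12 passed 2-fold, against 2.49% of all detected genes. Their median ratio was -0.01, with 6 above 0 and 6 below, and it turned positive in 4 other scalings (0.06 to 0.11), with 9 above and 3 below when arrays were scaled by their medians. Col11a1, a chain of the thin cartilage fibrils, had the lowest ratio, -0.82, with intensities of 107657 and 60799. Aggrecan (Acan), the large proteoglycan to which matrilin-1 binds, had the highest, 0.34. Type II collagen (Col2a1), the main fibril of cartilage, had -0.07.

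Of 15 receptor genes 14 were detected, and none of them passed 2-fold on its brightest probe, against 2.49% of all detected genes. The median ratio was 0.04, with the lowest value for syndecan 4 (Sdc4, -0.24) and the highest for Cd36 (0.76, or 0.40 with normexp correction), a receptor of thrombospondin 1. Itga2 was well above background before loading only, with intensities of 23.1 and 9.06, a ratio of -1.35 with an error of 0.64. The dimmest level that was well above background at 24 h was 1.29-fold below the level of Itga2 before loading. That dimmest level is not a detection limit, and the comparison does not include the within-array error. No least size of the difference is therefore given.

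Proteases that cleave these proteins or the matrix around them had a median ratio of 0.49, which was 0.21 with normexp correction and 0.24 with no filter on dim probes. Of 11 listed 9 were detected, and 8 of these had ratios above 0, against 47.6% of all detected genes. By more than 2 within-array errors 5 were higher (7.64% of detected genes) and 0 were lower (9.4%). None passed 2-fold on its brightest probe, against 2.49% of all detected genes. Adamts5, an aggrecanase, had the highest ratio, 0.62, which was 0.21 with normexp correction, and its dimmer probe had 1.31. Mmp3, stromelysin 1, had the lowest, -0.17, which was -0.33 relative to detected neighbouring spots. Adamts7 and Adamts12 are known to degrade Comp. Adamts7 went from 57.8 to 88.2, a ratio of 0.61 that was 0.25 with normexp correction, and was named after its value was seen. Adamts12 was well above background before loading only, with intensities of 24.2 and 17.5. Its ratio of -0.46 was smaller than its error of 0.49, so no direction is given. Its dimmer probe was not well above background before or after loading.

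Of the 7 genes for TGF-β ligands and their latent binding proteins, all were detected and 5 had ratios above 0, with a median of 0.44, or 0.29 with the mean over probes. By more than 2 within-array errors 4 of the 7 were higher (7.64% of detected genes) and 1 was lower (9.4%). Of all detected genes 47.6% had ratios above 0 and 2.49% passed 2-fold. Latent TGF-β binding protein 2 (Ltbp2) was the exception that passed 2-fold, with 3301 before loading and 1409 at 24 h, a ratio of -1.23. Tgfb2 had the highest ratio, 0.67, with intensities of 4120 and 6543.

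**Figure D4:**
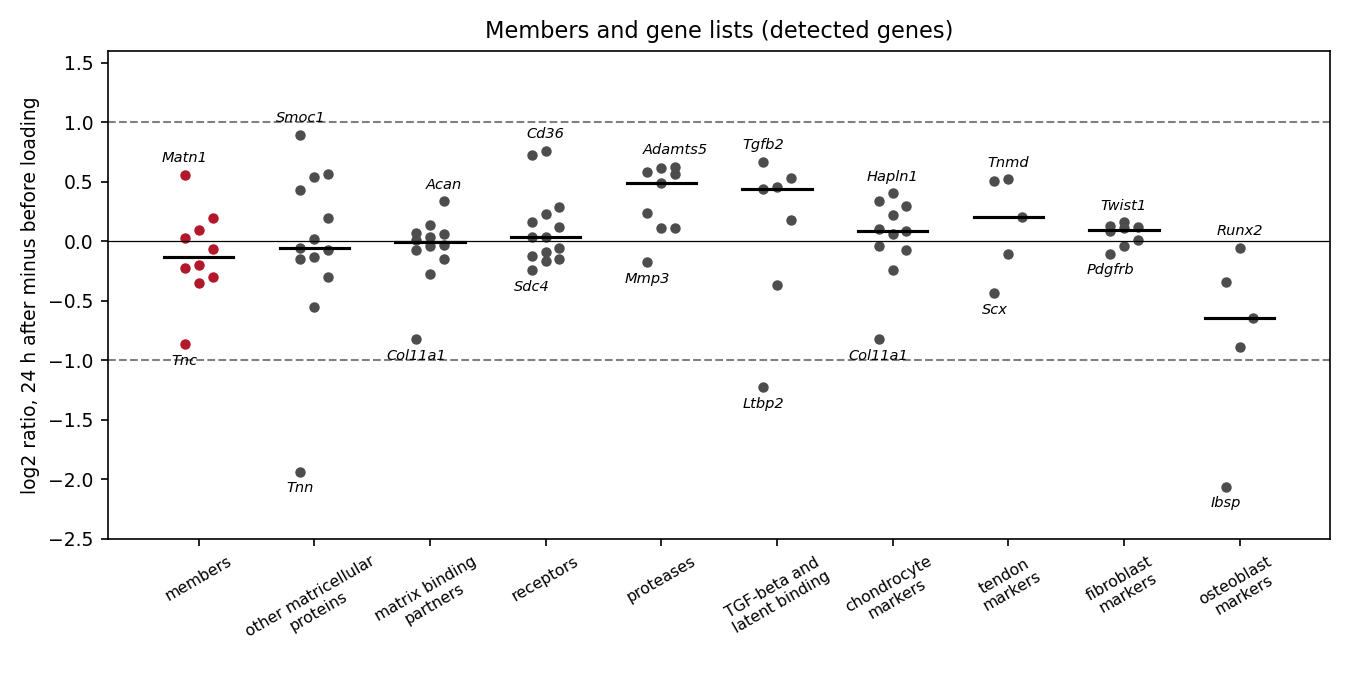
Log2 ratio (24 h after minus before loading) of every detected gene of the 10 genes described and of 9 of the comparison lists, with a bar at the median of each group, dashed lines at 2-fold and the lowest and highest gene of each named. Some lists share genes, and the list of other matricellular proteins includes fibronectin. The medians are -0.13 for the 10 genes, 0.49 for proteases and -0.64 for osteoblast markers (0.21 and -0.41 with normexp correction), the medians of -0.01 for matrix binding partners and -0.06 for other matricellular proteins turn positive in 4 other scalings, and Runx2 turns sign in 4 other settings.

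The labelled cell type was checked against its markers. All 11 chondrocyte markers were detected, Sox9, Col2a1 and Acan among them, and their median ratio was 0.08, from -0.82 (Col11a1) to 0.40 (Hapln1). Of 6 tendon markers 5 were detected with a median of 0.21. Scx had the lowest ratio, -0.44, and Tnmd the highest, 0.52, which was 0.20 with normexp correction. The summed tendon intensities of 29680 and 40421 were mostly those of Fmod (26910 and 38232). Such sums follow the brightest probe of a list. All 8 fibroblast markers were detected, with a median of 0.10, summed intensities of 139509 and 140369, and ratios from -0.11 (Pdgfrb, whose sign turned in 1 other setting) to 0.16 (Twist1). Of 8 skeletal muscle markers 4 were detected, and Ckm, Des, Myod1 and Actn2 were not well above background. Muscle ratios reached from -0.78 (Tnnt3) to 0.64 (Myh3), with summed intensities of 1841 and 1519. The endothelial markers Cdh5, Emcn and Tek were not well above background, and the 3 others of 6 had ratios from -0.48 (Vwf, -0.15 with normexp correction) to 0.23 (Pecam1, 0.13 with that correction). The summed endothelial intensities of 12958 and 12557 were mostly those of the brightest Kdr probe (12774 and 12375). The dimmer Kdr probe (5.05 and 5.63) was not well above background before or after loading. Of 7 macrophage markers 5 were detected, 4 of them with ratios above 0, against 47.6% of all detected genes. The median of the detected macrophage markers was 0.21. Ptprc had the highest ratio, 1.14 (20.9 and 46.1), which was 0.40 with normexp correction. Csf1r had the lowest, -0.15, but its dimmer probes had 0.27 and 0.20 and the mean over its probes was 0.11. The summed macrophage intensities of 4198 and 4024 were mostly those of the brightest Csf1r probe (3646 and 3288). The part of tendon, fibroblast, muscle, endothelial and macrophage cells in the results for the 10 genes was not tested.

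The 10 genes were computed in 12 other settings of scaling, background, probe choice, filtering and position. Matn1 stayed positive in all 12, between 0.56 and 0.73, and Tnc stayed negative in all 12, between -1.16 and -0.50. Matn2 lay between 0.09 and 0.19, and Thbs1 between 0.15 and 0.34. Matn3 lay between -0.26 and -0.12, Thbs2 between -0.34 and -0.12, and Thbs4 between -0.54 and -0.25. The signs of these 5 genes did not turn in any of the 12 settings. For Matn4 (-0.02 to 0.13), Thbs3 (-0.16 to 0.10) and Comp (-0.20 to 0.01) the range included 0.

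**Figure D5:**
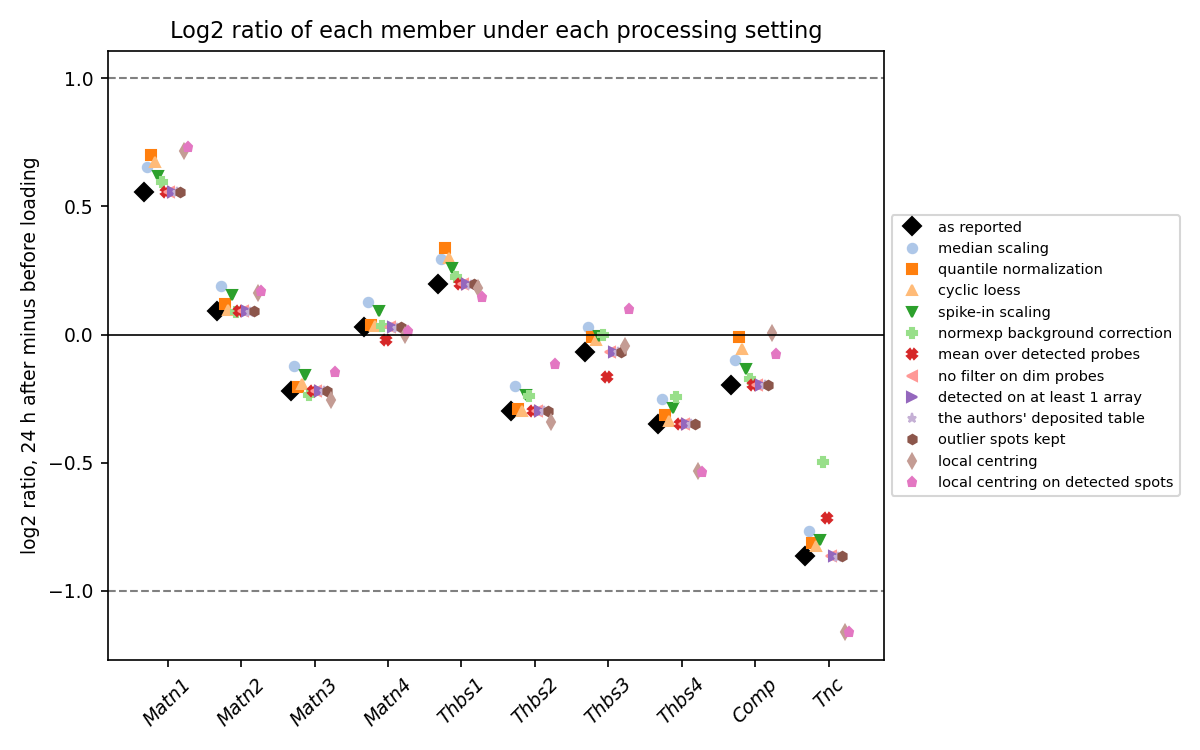
Log2 ratio (24 h after minus before loading) of each of the 10 genes as reported (black) and in the 12 other settings (other points), with dashed lines at 2-fold. Matn1 lies above 0 and Tnc below 0 in every setting, Tnc crosses the 2-fold line relative to its neighbouring spots, and Matn4, Thbs3 and Comp lie on both sides of 0.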

How the data were processed

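Gene expression was measured in mouse primary chondrocytes on 2 one-colour Agilent arrays, 1 before loading and 1 at 24 h, which shared a slide. The spot intensities deposited by the authors came from Feature Extraction 10.10.1.1 (per the submitters' processing notes) after background subtraction, with its error and flags and with no normalization between arrays. Their deposited table of intensities differed from these values by at most 0.497%. Names came from a RefSeq table of GRCm38, and no genome coordinates of the probes were used.

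Of 59305 non-control spots, 255 were dropped for an outlier flag, and spots of a probe were averaged to 55678 probes. Log2 intensities were scaled by subtracting the 75th percentile of the array. The 75th percentiles differed by -0.0007 (log2). The share of spots well above background was 59.14% before and 57.66% at 24 h, and 0 were saturated. RefSeq transcripts named 27235 probes, the brightest representing a gene. Detection required at least 50% of the spots of a probe to be well above background on both arrays. Precision is limited by the number of arrays, and errors printed cover within-array error only.

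The 10 genes and the 12 comparison lists were chosen with earlier results of these data known. Some lists share genes, such as those of fibronectin, aggrecan and type II collagen. Genes named by rule are the 10, the list members past 2-fold, the highest and lowest of each list, and the defining markers. The other list genes named, such as Tnxb, Tnr, Itga2, Adamts12, Fmod and Kdr, were chosen after their values were seen. For Itga2 the comparison uses the lowest intensity well above background, 17.8 at 24 h, and no within-array error, and it is not a bound. A total of 10 alternatives were planned and 2, which centre each spot on those within 100 µm, were added after seeing the data. Normexp (offset 50, on the median spot signal, since the files hold no mean signal), quantile and loess settings used limma 3.58.1 in R 4.3.3. The rest was run in Python 3.11.15 (numpy 2.4.6, pandas 2.3.3). The calculation was run on simulated arrays with changes larger than those of the 10 genes and with within-array noise only. That run checks the code and not the ratios given here. Promoter windows came from RefSeq (GRCm38.p6).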

Additional observations from a re-analysis of the deposited data

How the results depend on the processing

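No paired analysis was possible because there was 1 array per time point, and for the same reason no replicate could be left out. With normexp background correction, the log2 ratio of Tnc was -0.50, and centring on neighbouring spots, on all or on detected ones, gave -1.16. With either centring, 1 of the 10 genes, Tnc, was more than 2-fold lower. Among all detected genes the share more than 2-fold lower was 1.76% with centring on all neighbours and 1.63% on detected ones. The cause of the shift of Tnc was not tested. Of 156 values and counts over the 12 alternatives, in the other 151 the ratios moved by less than the within-array error and the counts stayed at 0. The median of the 10 genes stayed below 0 in all 12, from -0.18 to -0.01. Thbs3 turned positive with median scaling (0.03) and with centring on detected neighbours (0.10), Matn4 negative with the mean over probes (-0.02) and with centring on all neighbours (-0.002), and Comp was 0.01 with centring on all neighbours. Over all detected genes, 95 were more than 2-fold higher and 260 lower, against 38 and 117 with normexp correction, 492 and 983 with no filter on dim probes, and 192 and 507 with detection on at least 1 array. Higher genes made up a larger part with median scaling (130 and 205), spike-in scaling (114 and 223), quantile normalization (108 and 224) and loess (103 and 232). Signal over background limits Tnc, whose dimmer probe was at 28.7 at 24 h, where the lowest intensity well above background was 17.8.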
